A study of Saccharomyces cerevisiae with 4 samples.

Results

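Arp4 is an actin-related protein of the nucleus. It is a subunit of the histone acetyltransferase complex NuA4 and of the chromatin remodelling complexes SWR1 and INO80, and its gene is essential in budding yeast. In this yeast most active genes have a nucleosome-depleted promoter followed by a well-placed nucleosome near the start of the transcribed region. SWR1 deposits the histone variant H2A.Z into nucleosomes beside that gap, INO80 moves nucleosomes there, and NuA4 acetylates histone H4 and H2A.Z. The peaks described here are those whose point of highest Arp4 signal, the summit, lay in the first stretch of a protein-coding gene.

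Peaks were chosen by the measured position of the summit. A summit belonged to the set when it lay inside a protein-coding gene of the R64 genome, less than 200 bp downstream of the annotated start of that gene, and in no RNA gene. The rule took 372 of 1430 Arp4 peaks (26.0%). They fell in 375 genes, or 6.25% of the 6002 nuclear protein-coding genes, because 3 summits lay in the first 200 bp of 2 overlapping genes. No gene held 2 of them. A further 7 summits met the distance rule and were left out because they also lay in an RNA gene, among them summits in the 5S genes RDN5-3, RDN5-4 and RDN5-5. The annotated start is that of the coding region rather than of the transcript, since 96.4% of the annotated gene lengths are multiples of 3.

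The study used Saccharomyces cerevisiae at mid-log growth in YPD, a rich medium, at 30 °C. In 2 samples the otherwise wild-type cells carried Arp4 with a 3Flag tag (genotype wild-type with ARP4-3FLAG), and in 2 control samples the wild-type cells carried no tag. Sonicated chromatin of all 4 was precipitated with an antibody against Flag and sequenced. The data analysed are 1 list of peaks. It holds no separate measurement of each sample, hence replicate error could not be given, the read depth is unknown and the level in untagged cells was not analysed here. Fold enrichment is the authors' linear ratio at the summit over the background of the peak caller, and −log10 q is the authors' measure of how sure the call is. Because summit positions in this list chose the set, positions, extents and fold are given as descriptions with no test.

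The summits gathered in a narrow band just inside the coding region. The median offset was 71 bp downstream of the start, with quartiles of 47.8 and 105 bp and the lowest at 3 bp. In steps of 20 bp the number of summits was 25 at 0 to 19 bp, 45 at 20 to 39 bp, 79 at 40 to 59 bp and 68 at 60 to 79 bp. It then fell away through 48, 33 and 16 summits to 24, 19 and 15 in the last steps. The stretch from 30 to 99 bp held 219 of the 372 summits (58.9%, Wilson 95% interval 53.8 to 63.8), and 265 lay below 100 bp. Genes read from either strand were alike in number, 188 on the Watson and 184 on the Crick strand, and all 16 chromosomes held some, between 9 on chromosomes I and VI and 60 on chromosome IV. The median offset on single chromosomes was between 56 and 99 bp.

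**Figure D1:**
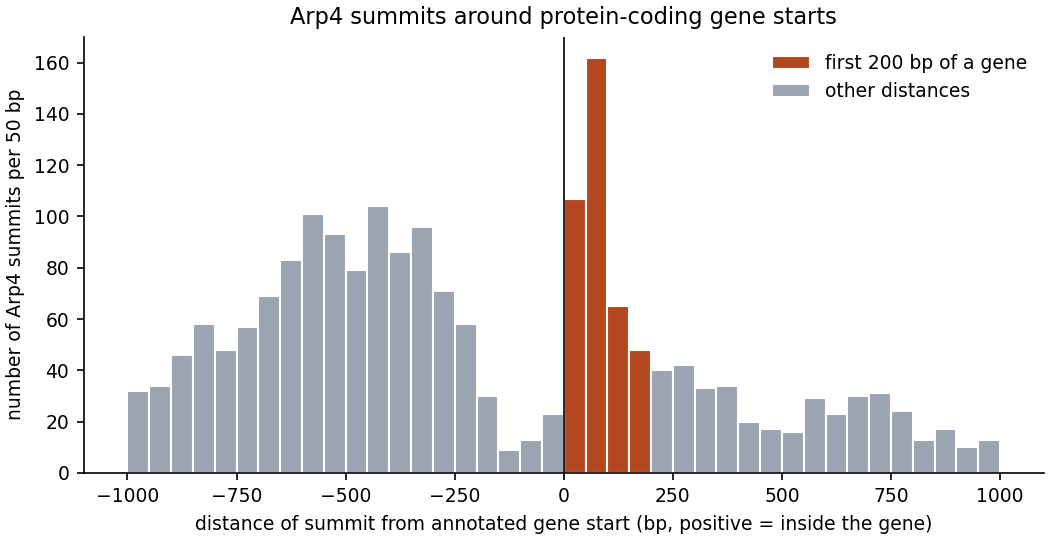
Number of Arp4 summits per 50 bp of distance from annotated protein-coding gene starts (positive is inside the gene), with the first 200 bp of genes in colour. A summit counts at every gene start within 1000 bp, RNA gene summits included. The highest bar, 162 summits, is at 50 to 99 bp inside the gene, beside a low of 9 summits at 150 to 101 bp upstream.

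The edges of the zone cut through a falling profile on the inside and a rising one at the start. The lowest offsets were those of CDC39, which encodes the scaffold of the CCR4-NOT complex of mRNA turnover (3 bp, fold 2.78), YSY6 (3 bp, fold 1.89), and NUM1 and MSS4 (4 bp each, folds 1.59 and 1.76). The highest were those of TED1 and RPL9B (on the last base of the zone, folds 1.36 and 1.54) and RPP2B (197 bp, fold 1.95). Nearest outside, GCD11, MNP1 and NIP1 had the summit 1 bp upstream of the start, with folds of 3.64, 2.02 and 3.27. On the other side YHR033W, RPL12B and RPL9A had it 200, 201 and 202 bp inside, with folds of 1.31, 1.31 and 1.61. The 9 members in the last 10 bp of the zone had a median fold of 1.59. At the other edge the 25 members at 0 to 19 bp had a median of 1.89, and the 11 peaks at 20 to 1 bp upstream had one of 2.02.

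Most peaks spanned the gene start. The extent of 313 of 372 peaks (84.1%, Wilson 95% interval 80.1 to 87.5) included at least 1 bp upstream of the start, and the median peak reached 85 bp upstream and 239 bp into the gene. This share depends on the rule, which held summits below 200 bp. It was 99.1% at offsets of 0 to 49 bp and 31.9% from 150 bp on. The median width was 331.5 bp in this set and 367 bp in all other peaks. A reach of 1 to 99 bp upstream was seen for 40.1% of the peaks, of 100 bp to below 200 bp for 69 peaks, of 200 bp to below 400 bp for 56 and of 400 bp or more for 39. The median distance from summit to upstream edge was 152 bp, with quartiles of 123 and 284 bp. To the inside edge it was 151 bp, with quartiles of 111 and 210 bp. The summit was nearer the inside edge in 189 peaks and nearer the upstream edge in 180. Near-equal medians do not place each summit at the middle of its peak.

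Long reaches went with a divergent upstream neighbour, a gene read in the opposite direction from the same intergenic region. Of the 95 peaks reaching at least 200 bp upstream, 81 (85.3%) were at genes of this layout, against 240 of the 375 genes (64%) as a whole. The median upstream reach was 102 bp in the 237 peaks at divergent genes and 66 bp in the 135 at genes with a tandem neighbour. The peak ran past the whole intergenic region into the upstream gene in 45 of 237 divergent cases and in 9 of 135 tandem cases. Both kinds had the same summit position within a few bp, with median offsets of 69 bp in divergent and 74 bp in tandem genes, and near-equal median folds of 1.81 and 1.83.

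The peak that reached farthest was at SEC62, a subunit of the protein translocation channel of the endoplasmic reticulum. It was 2798 bp wide (chromosome XVI, 370093 to 372890), with the summit 21 bp inside SEC62 and the far edge 2227 bp upstream, beyond the start of the divergent neighbour NOG1. SRO9, which encodes an RNA-binding protein, came next, with a reach of 1160 bp and a width of 2345 bp (chromosome III, 57494 to 59838). SWA2 and RET2 followed with 846 and 786 bp. The other 2 of the 4 widest peaks, at RPE1 (1486 bp) and TRM112 (1247 bp), extended mostly downstream instead, 1446 and 870 bp into and past the gene. Of the 372 peaks, 363 were no wider than 1000 bp.

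**Figure D2:**
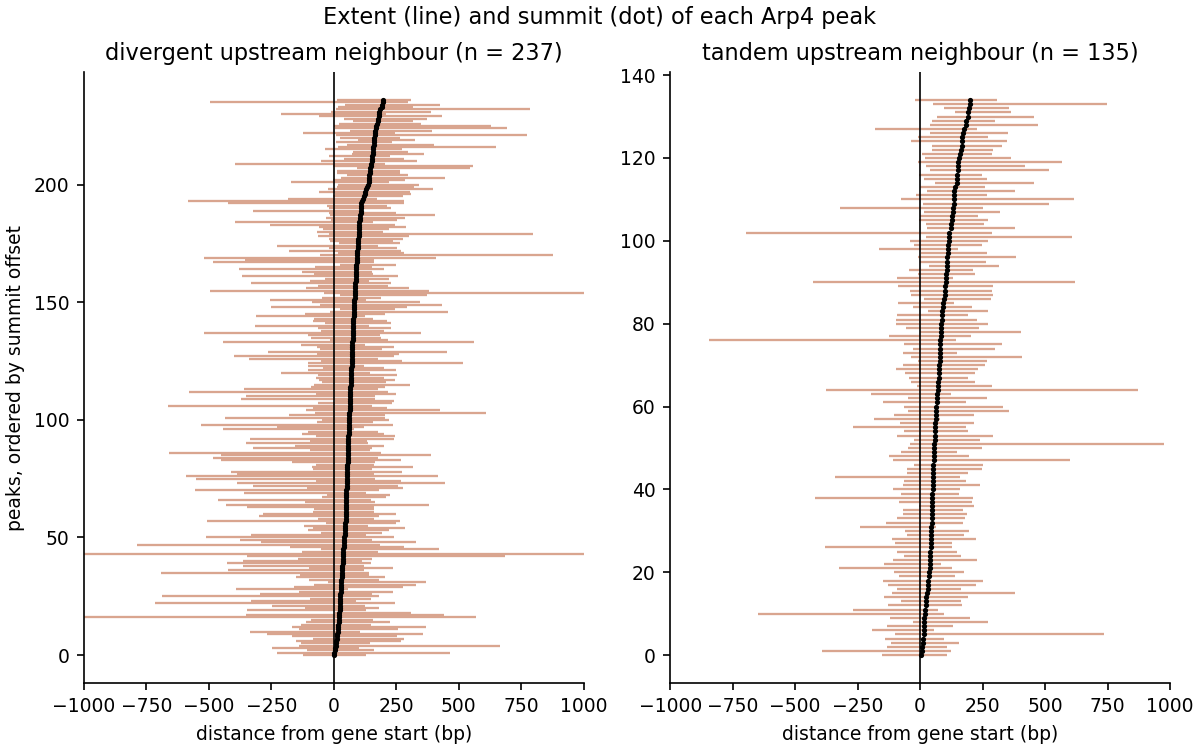
Extent (line) and summit (dot) of the 372 peaks relative to the gene start, ordered by offset, for 237 genes with a divergent and 135 with a tandem upstream neighbour. Lines are cut at 1000 bp. Summits stay below 200 bp by the rule, while lines reach farther upstream in the divergent panel (median 102 bp) than in the tandem panel (median 66 bp).

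In 59 peaks (15.9%) no base lay upstream of the start. These were the deeper summits, at 100 bp or more in 50 of the 59, and their fold was low, reaching 2 in 5 of them. Those 5 were RPC40, a subunit shared by RNA polymerases I and III (offset 171 bp, fold 2.54), the small subunit ribosomal protein genes RPS26B (173 bp, 2.28) and RPS26A (168 bp, 2.07), YCR025C (161 bp, 2.27) and ECM15 (148 bp, 2.22).

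Enrichment was moderate. Fold had a median of 1.82 with quartiles of 1.57 and 2.12 and a range of 1.22 to 6.32, against a median of 1.61 in the 1058 other peaks. The median −log10 q was 19.9, against 14.5 in the other peaks. In 128 of the 372 peaks (34.4%) the fold was 2 or more, against 24.2% of all peaks. In 17 (4.57%) it was 3 or more, against 5.66% of all peaks. Among the peaks of highest fold, the set held 6 of the top 20, 26 of the top 100 and 73 of the top 200, where its share of the whole list is 26.0%.

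Neighbouring stretches of DNA gave a different picture on either side. The stretches given by distance were measured from any protein-coding gene start and leave out the peaks of the set. Unlike the set they keep summits in RNA genes, and upstream also summits inside other genes. The contrasts by distance are therefore not like for like. Peaks with the summit at least 200 but below 400 bp inside a gene, 148 in number, had a median fold of 1.48, and 10 of them (6.76%) reached 2. The 71 peaks with the summit less than 200 bp upstream had a median of 1.91, and 31 of them (43.7%) reached 2. The 500 peaks in the stretch 700 to 200 bp upstream had a median of 1.74 and included 58 with a fold of at least 3. The 204 peaks in divergent intergenic regions had a median close to that of the set, 1.85, but a fold of at least 3 in 35 cases (17.2%).

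Within the set, fold declined with depth into the gene. The 106 peaks at 0 to 49 bp and the 159 at 50 to 99 bp had median folds of 1.88 and 1.88, and 43.4% and 41.5% of them reached 2. From 100 bp to below 150 bp the median of 60 peaks was 1.70, and 16.7% reached 2. From 150 bp on the median of 47 peaks was 1.56, and 12.8% reached 2. Of the 17 peaks with a fold of at least 3, 16 had the summit below 100 bp, and their median offset was 53 bp.

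**Figure D3:**
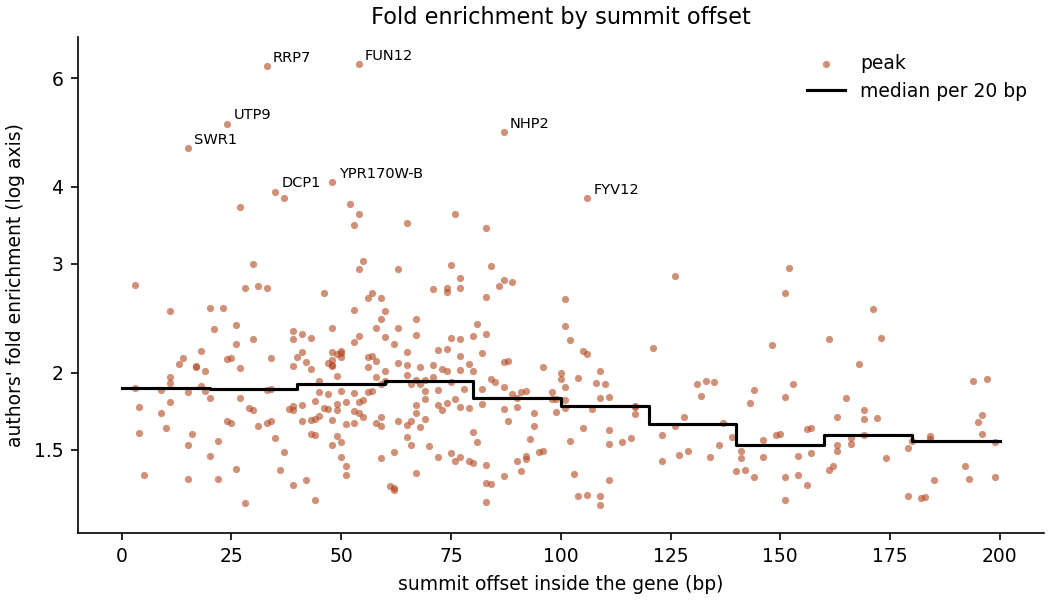
The authors' fold enrichment (log axis) of each of the 372 peaks against its summit offset inside the gene in bp, with the median per 20 bp as a line and the 8 highest peaks named. The medians lie between 1.82 and 1.94 up to 99 bp and between 1.52 and 1.65 from 120 bp on.

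The 4 peaks of highest fold were at genes for translation and RNA processing. FUN12 encodes the translation initiation factor eIF5B. Its peak (fold 6.32, −log10 q 545) had the highest fold of all 1430 and reached 590 bp upstream, across the whole 274 bp between FUN12 and the divergent gene RBG1. RRP7, whose protein acts in ribosomal RNA processing, had a compact peak of 403 bp that reached 150 bp upstream (fold 6.28). UTP9 encodes a subunit of the small subunit processome, the particle that assembles the 40S subunit (fold 5.06, offset 24 bp, chromosome VIII, 491788 to 492123). NHP2 encodes a core protein of the H/ACA particles that pseudouridylate RNA (fold 4.91, offset 87 bp, chromosome IV, 87015 to 87892), and its peak covered the whole 285 bp between NHP2 and the divergent gene CWC2.

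The next 6 belonged to varied functions. SWR1 encodes the ATPase of one of the complexes that contain Arp4 (fold 4.62), and its summit was 15 bp inside the gene. YPR170W-B (fold 4.07, offset 48 bp, chromosome XVI, 882819 to 883451) had its nearest upstream protein-coding neighbour 3070 bp away. DCP1 encodes a subunit of the mRNA decapping enzyme (fold 3.93, offset 35 bp, chromosome XV, 44833 to 45113). FYV12 (fold 3.84, offset 106 bp, chromosome XV, 678843 to 679158) lies only 78 bp from the divergent ribosomal protein gene RPS30B, and its summit was 185 bp upstream of the start of RPS30B. SEC63, a partner of SEC62 in the translocation channel, had a fold of 3.83 at 37 bp (chromosome XV, 806868 to 807164), and FRS1, which encodes a phenylalanyl-tRNA synthetase subunit, had one of 3.75 at 52 bp (chromosome XII, 260874 to 261255).

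The next 10 ran from MRPS18, a mitochondrial ribosomal protein gene (fold 3.71, offset 27 bp), to CCT3 (2.98, 84 bp). Between them came CCT5 (3.62, 54 bp) and CCT2 (3.50, 65 bp), which with CCT3 encode subunits of the chaperonin that folds actin and tubulin. SSU72 encodes a phosphatase of the RNA polymerase II tail (3.61, 76 bp), and ARC19 a subunit of the actin-nucleating Arp2/3 complex (3.46, 53 bp). RPC19 and RPC37 encode RNA polymerase subunits (3.43 at 83 bp and 3.03 at 55 bp). EMG1, a ribosomal RNA methyltransferase gene (3.00, 30 bp), and TYS1, the tyrosyl-tRNA synthetase gene (2.99, 75 bp), completed them.

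Functions were compared by counting how many genes of each of 42 lists carried such a summit, beside the 6.25% of all protein-coding genes. Of the 42 lists, 28 had a higher share than all genes and 14 a lower one. In 21 the share was at least 2 times that of all genes, in 7 it was at most 0.5 times, and 4 lists had no member. The lists together hold 1879 genes, of which 207 (11.0%) carried a summit in the first 200 bp. The other 168 genes of the set are on no list.

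**Figure D4:**
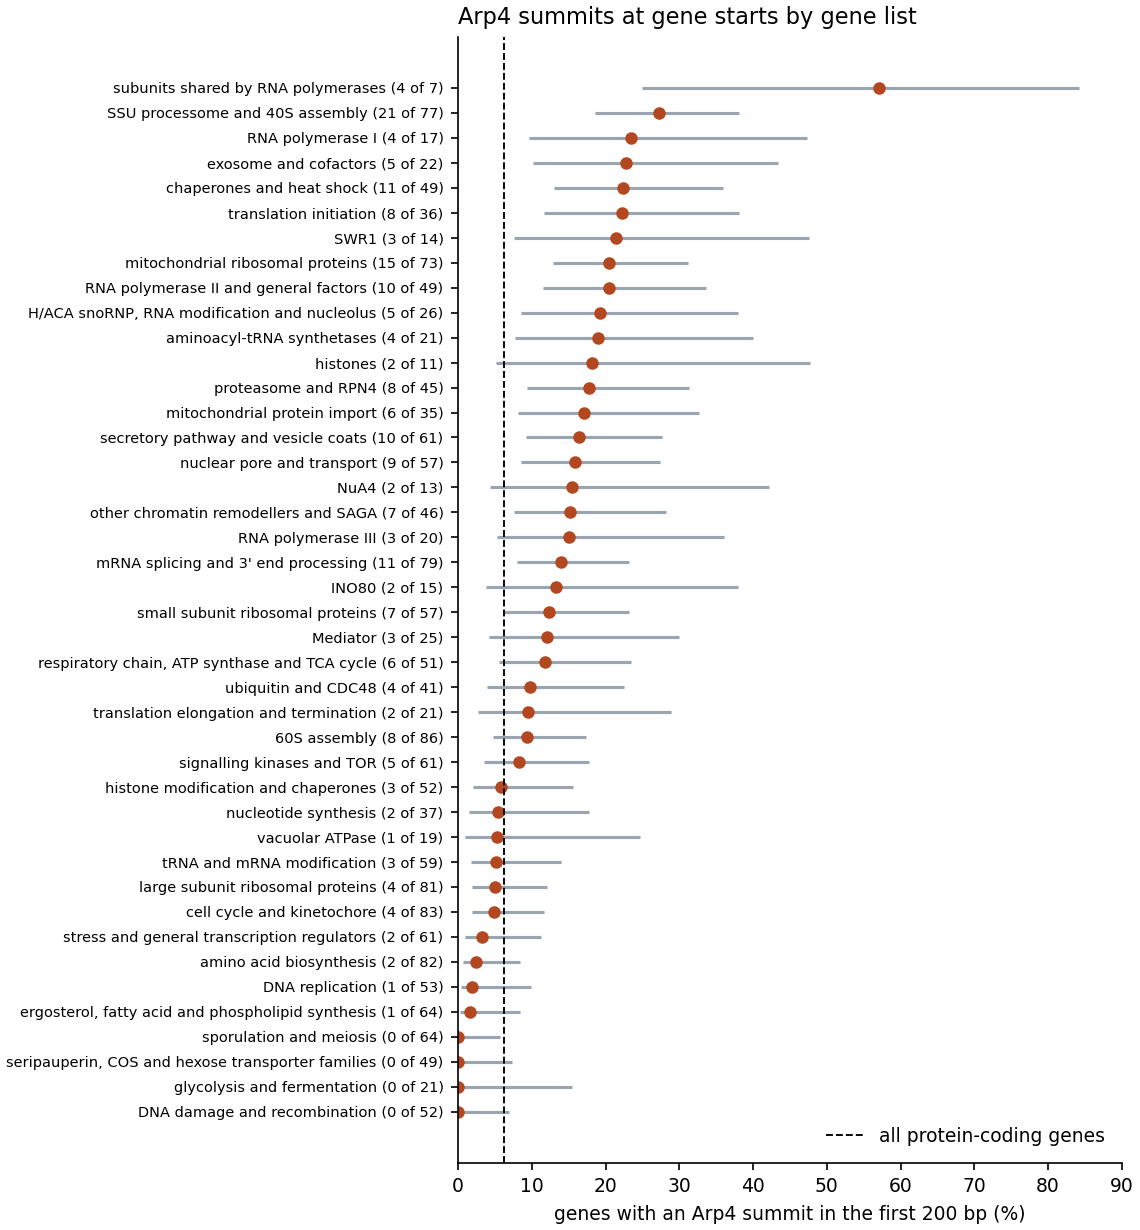
Share of the genes of each of 42 lists that held an Arp4 summit in their first 200 bp (dot, %) with its Wilson 95% interval (line), and the 6.25% of all protein-coding genes (dashed line). Shares run from 57.1% for subunits shared by RNA polymerases to 0 for 4 lists.

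Genes for assembling the small ribosomal subunit stood high. The list of small subunit processome and 40S assembly genes had 21 of 77 (27.3%, Wilson 95% interval 18.6 to 38.1), with a median fold of 1.92. Below RRP7 and UTP9 the highest were EMG1, UTP15 (fold 2.95, offset 63 bp), PXR1 (2.65, 83 bp) and BMS1, a GTPase gene (2.63, 101 bp). Genes for assembling the large subunit had 8 of 86 (9.30%), led by NSA1 (2.81, 89 bp) and SQT1, the gene of a chaperone for a large subunit protein (2.74, 74 bp). The H/ACA, RNase P and nucleolar list had 5 of 26 (19.2%). It had 1 of 26 (3.85%), against 4.7% of all genes, when the peak midpoint replaced the summit. Apart from NHP2, its members RPR2, NAF1, POP5 and POP1 had folds between 1.24 and 1.83. The list of the exosome, which degrades and trims RNA in the nucleus, and its cofactors had 5 of 22 (22.7%). AIR1 (2.27, 75 bp) and MTR3 (2.12, 50 bp) were highest. A summit 200 bp or more inside the gene lay in 18 of the 77 small subunit assembly genes, against 9.36% of all genes. On the large subunit assembly, H/ACA and exosome lists it lay in 22 of 86, 6 of 26 and 2 of 22. For small subunit assembly the raised share was thus not particular to the first 200 bp.

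Genes of the transcription machinery were also frequent. Subunits shared by RNA polymerases had the highest share of any list, 4 of 7 (57.1%, Wilson 95% interval 25 to 84.2). They were RPC19, RPC40, RPC10 (fold 2.45, offset 59 bp) and RPB8 (2.39, 81 bp), all with a fold above 2. RNA polymerase I had 4 of 17, namely RPA12 (2.95, 152 bp), the second-largest subunit gene RPA135 (2.17, 50 bp), NET1 and RRN6. RNA polymerase III had 3 of 20, RPC37, RPC82 (2.70, 74 bp) and RPC31 (1.47, 20 bp). RNA polymerase II and its general factors had 10 of 49 (20.4%), among them TAF4 (2.54, 23 bp), the elongation factor gene SPT4 (2.38, 101 bp) and TFA1 (2.09, 48 bp). Mediator had 3 of 25, with no fold above 1.94.

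Translation and protein folding formed a further group. Translation initiation factors had 8 of 36 (22.2%), and below FUN12 these were led by SUI3 (fold 2.23, offset 26 bp), GCD1 (2.16, 48 bp) and GCD7 (2.12, 40 bp), which encode subunits of the factors eIF2 and eIF2B. Aminoacyl-tRNA synthetases had 4 of 21, FRS1, TYS1, DED81 (2.39, 26 bp) and WRS1 (1.34, 185 bp). The translation elongation and termination list had 2 of 21, SUP35 (2.27, 39 bp) and DPH2 (1.87, 72 bp). Chaperones and heat shock proteins had 11 of 49 (22.4%), and 7 of these 11 were CCT genes, a complex with 8 genes. The others were GIM3 (2.05), SSZ1 (1.83), FES1 (1.63) and EGD1 (1.26). Most members of this list thus came from a single complex. The proteasome list had 8 of 45 (17.8%), led by RPN11, which encodes its deubiquitinating subunit (2.52, 53 bp), and PRE5 (2.51, 60 bp). Summits 200 bp or more inside the gene were also frequent in most of these lists. They lay in 13 of 36 initiation, 7 of 21 synthetase and 13 of 49 chaperone genes, against 9.36% of all genes. Elongation and termination had 12 of 21 and the proteasome 2 of 45. For initiation, synthetase and chaperone genes a raised share was thus not particular to the first 200 bp.

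Among mitochondrial and secretory genes, mitochondrial ribosomal proteins had 15 of 73 (20.5%) with a median fold of 2.01, led by MRPS18, RSM27 (fold 2.52, offset 11 bp), MRPL23 (2.44, 67 bp) and MRPS8 (2.36, 48 bp). Mitochondrial protein import had 6 of 35 (17.1%), led by the channel gene TIM17 (2.94, 54 bp), TOM70 (2.76, 31 bp) and TOM6 (2.69, 46 bp). The respiratory chain, ATP synthase and tricarboxylic acid cycle had 6 of 51, with only ATP18 (2.36, 58 bp) above 2. The secretory list had 10 of 61 (16.4%), led by SEC63, SEC62 (2.35, 21 bp), the coatomer gene RET2 (2.31, 41 bp) and PMT1 (2.22, 62 bp).

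Chromatin genes included some of the complexes that hold Arp4. Members were SWR1, RVB1 (fold 2.13, offset 77 bp) and SWC7 (1.75, 38 bp) of 14 SWR1 genes, EAF3 (2.04, 17 bp) and EPL1 (1.47, 92 bp) of 13 NuA4 genes, and RVB1 and ARP8 (1.49, 141 bp) of 15 INO80 genes. RVB1 belongs to both remodellers and is counted in each. The shares were 21.4% for SWR1, 15.4% for NuA4 and 13.3% for INO80, against 6.25% of all genes. The Wilson intervals were wide, at 7.57 to 47.6%, 4.33 to 42.2% and 3.74 to 37.9%. Those of NuA4 and INO80 included 6.25%. The SWR1 list reached 2 times the share of all genes in 10 of 10 settings, NuA4 in 8 and INO80 in 7. ARP4 and SWC4 held no such summit. Other remodellers and SAGA had 7 of 46 (15.2%), with RSC8 (2.08, 87 bp), STH1 (2.07, 63 bp) and NGG1 (2.01, 19 bp) above 2. Histone modification genes were near the background with 3 of 52, namely the deacetylase gene RPD3 (2.15, 50 bp), BRE1 (2.04, 68 bp) and LGE1 (1.86, 98 bp). Of 11 histone genes HTB1 (1.53) and HTB2 (1.32) held one.

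RNA handling and transport genes were intermediate. Splicing and 3' end processing had 11 of 79 (13.9%), led by SSU72, LSM6 (fold 2.75, offset 77 bp), LSM3 (2.28, 60 bp) and LSM5 (2.07, 79 bp). Nuclear pore and transport had 9 of 57 (15.8%), with NUP49 (2.64, 59 bp), YRB1 (2.15, 82 bp) and NUP1 (2.11, 34 bp) highest. Kinase and TOR signalling had 5 of 61 (8.2%), near the 6.25% of all genes. All were weak, with folds of 1.34 to 1.65, of which SIP1 was highest.

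Counts for cytosolic ribosomal protein genes depended on where the zone ended and on what was counted. The large subunit list had 4 of 81 (4.94%) and the small subunit list 7 of 57 (12.3%). Of their genes, 47 and 32 had a summit 700 to 200 bp upstream, against 14.3% of all genes. A summit 200 bp or more inside the gene was present in 65 and 39, against 9.36% of all genes. In a zone of 250 bp the lists had 10 of 81 and 8 of 57, against 6.96% of all genes. Counting any base of a peak in the first 200 bp gave 32 of 81 and 21 of 57, against 13.4% of all genes. The 4 large subunit summits were all far inside, at 196 bp in RPP2A, 197 bp in RPP2B, the last base of the zone in RPL9B and just short of 150 bp in RPL14B. In the small subunit list the highest fold was that of RPS28A (2.83, offset 87 bp), and the median offset of the 7 was 133 bp. A divergent neighbour that encodes a ribosomal protein was present for 5 of 237 members (2.11%), against 78 of 3116 divergent genes in all (2.50%).

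Some lists had few or no members. No summit of this kind lay in the 64 sporulation and meiosis genes, the 52 DNA damage and recombination genes, the 49 seripauperin, COS and hexose transporter genes or the 21 glycolysis and fermentation genes (upper Wilson 95% limits of 5.66%, 6.88%, 7.27% and 15.5%). Amino acid biosynthesis had 2 of 82, LYS4 (fold 1.83) and LYS20 (1.53), lipid synthesis had EKI1 (1.67) of 64 genes, and DNA replication had RFA3 (1.67) of 53. Transcription regulators had 2 of 61, PHO2 (1.66) and TBF1 (1.29). Glycolytic genes were not free of peaks, since 10 of the 21 had a summit 200 bp or more inside the gene and 5 had one 700 to 200 bp upstream. The shares of all genes were 9.36% and 14.3%. Some base of a peak lay in the first 200 bp of 8 of the 21, against 13.4% of all genes.

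Median summit positions varied between lists. Secretory genes had a median offset of 39 bp and all 10 lay below 100 bp. Translation initiation genes had a median of 45.5 bp with CDC33 (172 bp) apart from the others, which lay at 26 to 60 bp. Mitochondrial ribosomal proteins had 51 bp, the proteasome 56.5 bp, the small subunit processome 71 bp, chaperones 84 bp and large subunit assembly genes 86 bp. These differences were not tested.

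**Figure D5:**
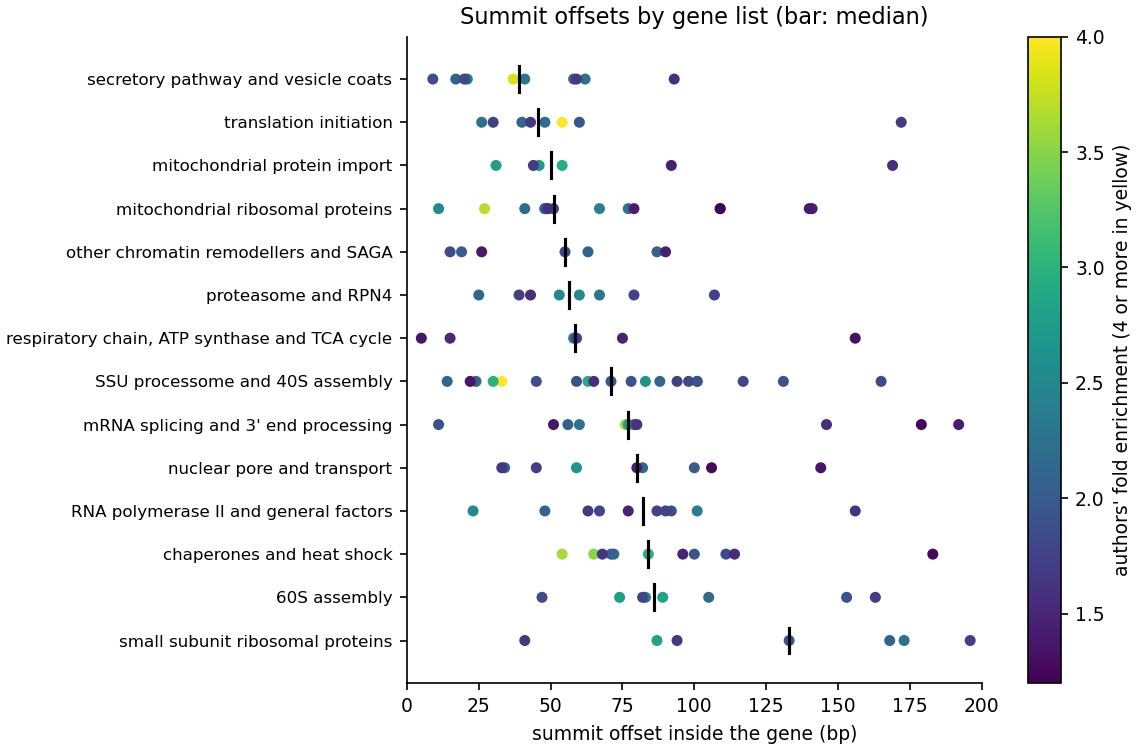
Summit offset inside the gene (bp) of each member of the 14 lists with at least 6 members, coloured by the authors' fold enrichment, with the list median as a bar. Medians run from 39 bp in secretory genes to 133 bp in small subunit ribosomal protein genes.

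The genes themselves were shorter than average and had shorter gaps upstream. Their median coding length was 943.5 bp, against 1200 bp for all genes. Genes of 300 to 599 bp carried a summit most often, 105 of 857 (12.3%), against 4.93% to 5.18% in each class of 600 bp or more. Genes below 300 bp carried one in 25 of 292 cases (8.56%), with a median offset of 77 bp. In the class of 300 to 599 bp the median offset was 103 bp, whereas it was 67 bp in genes of 600 bp to below 1200 bp, 65 bp in genes of 1200 bp to below 2400 bp and 54 bp in longer ones. The gap to the upstream gene had a median of 460.5 bp in divergent and 325 bp in tandem genes of the set, against 509 and 400 bp in all genes of those layouts. Genes with a gap of 200 to 299 bp carried a summit in 98 of 1216 cases (8.06%), and 44 of these had a fold of at least 2. Genes with a gap of 800 bp or more carried one in 44 of 1288 cases (3.42%), and 8 of these reached 2.

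A divergent upstream neighbour was present for 64% of the genes, against 3116 of 6002 protein-coding genes in all (51.9%). In 74 of the 237 divergent cases the summit also lay within 400 bp of the start of that neighbour. Of these 74, 39 (52.7%) had a fold of at least 2, against 44 of the 163 (27.0%) whose summit was farther away. The neighbour held a summit in its own first 200 bp for 18 of 240 divergent genes of the set (7.5%), against 7.73% of all divergent genes.

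Those 18 genes formed 9 pairs, of which 3 shared 1 summit in overlapping genes (MRX14 with YDR114C, LSM5 with YER145C-A and YFR035W-A with YFR035C). The other 6 pairs had separate summits, with gaps of 431 to 1530 bp between the genes. FRS1 (fold 3.75) faced REX2 (1.68) with 653 bp between the summits, and ACP1 (2.74) faced DPH2 (1.87) with 598 bp. In KRE1 and VNX1 the folds were 2.26 and 2.18 at a distance of 637 bp, and in SEC23 and SMX3 they were 1.82 and 1.92 at 558 bp. TAF8 and DAT1 had 1.67 and 1.69 at 661 bp, and RPS25B and NUP2 had 1.64 and 1.43 at 1705 bp.

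Second summits upstream differed in frequency with gene layout. Another summit lay 700 to 200 bp upstream in 45 of the 375 genes (12%), against 14.3% of all protein-coding genes. Split by layout, it was 23 of 240 divergent genes (9.58%), against 17.0% of all divergent genes, and 22 of 135 tandem genes (16.3%), against 11.5% of all tandem genes. Among genes with at least 700 bp to the upstream neighbour it was 6 of 61 (9.84%), against 17.5% of all such genes. These comparisons are limited, since only summits of other peaks count for the set. Of its own peaks, 95 reached at least 200 bp upstream, 81 of them at divergent genes. No other summit could be listed in the DNA that these peaks covered. None of the 375 had another summit less than 200 bp upstream, against 1.23% of all genes. Each listed peak has 1 summit, and peaks of the set were at least 220 bp wide. A second summit so close could therefore seldom be listed, and no conclusion is drawn from this contrast. Where a gene had a second summit 700 to 200 bp upstream, it was a median of 622 bp from the inner one, at least 457 bp. The inner peak had the higher fold in 24 of 44 such peaks. For CCT5, the upstream peak was that of RPA12, a tandem gene that is itself a member (fold 3.62 at CCT5 and 2.95 at RPA12).

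Deeper in the gene a second summit, at 200 bp or more, lay in 31 of the 375 genes (8.27%), against 9.36% of all genes. In genes of 600 bp or more the share was 31 of 245 (12.7%), against 10.2%. The peak at the start had the higher fold in 26 of the 31 genes with both, with medians of 1.97 at the start and 1.52 deeper in. FUN12 was the most marked case, with 3 deeper summits of fold 1.54 or less. In FRS1, CCT2 and CCT3 the highest deeper folds were 1.48, 1.34 and 1.51. The next summit was a median of 1124 bp downstream of the first.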

How the data were processed

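Flag precipitates from sonicated chromatin of Arp4-3Flag and untagged cells were sequenced, per the labels. The tools named are MACS2, SAMtools 1.4, BWA 0.7.15-r1140 and fastp 0.21.0, per the submitters' processing notes. Whether the 2 tagged samples were pooled is not given in the sources used here, nor are settings, genome build, control and threshold. The deposited peak list has the MACS2 layout. Its fold enrichment is a linear ratio made by the authors, its −log10 p and q are the authors' values (lowest −log10 q 1.31, a q of 0.0493), and its deposited score and −log10 p were not used. Without replicate values, read depth is unknown and no test was made. Wilson intervals cover counting error over genes or peaks only.

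Summits, counted from 1, were matched to a RefSeq R64 gene table, with strand read from systematic names. The build was checked on tRNA genes: 46 had a summit within 100 bp, and when all summits were shifted by 200 to 1000 bp only 2 to 10 did. A difference of a few bp would not be seen. Coordinates printed are those of the deposited peaks. Neighbours are protein-coding genes, and a summit in 2 genes was given to the nearer start. On simulated data, 137 of 137 planted summits were recovered at their offsets. They were planted with the same gene starts and strands that the rule reads. The run therefore checks the code of the rule and cannot show a wrong start, strand or build.

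The set, the 42 gene lists (1899 of 1903 names matched) and the zones were chosen with earlier results of these data known, and 1 wrongly placed name was later removed from the elongation list. Named genes are the 20 members of highest fold, up to 4 per list, those at the edges of the zone, the widest and farthest-reaching peaks, divergent pairs and subunits of NuA4, SWR1 and INO80; other genes that complete a small count were named after their values were seen. Sequence was not used here, so the planned motif search was not run. Python 3.11.15, numpy 2.4.6, pandas 2.3.3, scipy 1.17.1 and matplotlib 3.10.9 were used.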

Additional observations from a re-analysis of the deposited data

How the results depend on the processing

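Peak number stayed within 1.5 times of 372 in every alternative run, with at most 410, as did the divergent share (62.4% to 65.5%). With −log10 q of at least 10 there were 287 peaks, the median fold was 1.94 and 89.2% of peaks covered the start. With fold at or above the median of all peaks, the median offset was 63 bp, the median fold 2.01 and the share covering the start 91.6%. With the peak midpoint in place of the summit, the median offset was 88.5 bp and the median reach 68 bp, and 239 of 282 genes were shared with the set. Zones of 150 and 250 bp gave 91.7% and 78.5% covering the start. Asking for at least 50 bp upstream gave 66.7%. Counting any base of another peak 700 to 200 bp upstream gave 15.7%. Any base of any peak lay there in 21.3% of all genes, but the shares are not like for like. The 15.7% leaves out the gene's own peak at its start, and 95 of these own peaks reached at least 200 bp upstream. Counting genes whose first 200 bp held any base of a peak, 806 in all, gave 13 lists at 2 times the background in place of 21, glycolysis and fermentation among them with 8 of 21 genes. With genes of 600 bp or more only, an alternative added after seeing the data, the median offset was 63 bp. With genes at least 700 bp from the upstream neighbour, also added then, the share with another upstream summit was 9.84%, against 17.5% of all such genes.

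Of the 21 lists, 12 stayed at 2 times the background or more in all 10 settings that kept a point per peak. The other 9 fell below that in at least 1 setting. The 10 include the main count. They also include settings that barely changed the set (373, 379, 367 and 363 peaks in place of 372), so they are not separate checks. Among the 12, the chaperone list owed 7 of its 11 members to CCT. Under the midpoint, with 4.7% of all genes as background, NuA4 had 0 members, H/ACA 1 of 26 (3.85%), the proteasome 4 of 45 (8.89%) and secretory genes 5 of 61 (8.2%). Large and small subunit ribosomal proteins, below 2 times in the main count, had 8 of 81 (9.88%) and 9 of 57 (15.8%) there, and the small subunit list reached 2 times in 6 of the 10 settings. Histones had 0 under −log10 q of at least 10 and under the stricter fold. Splicing and 3' end processing had 6 of 79 (7.59%) under each of these, against 4.83% and 4.2% of all genes. Kinase and TOR signalling had 1 of 61 and 0 of 61. No paired analysis was possible because the peak list has no values per sample, and no replicate could be left out. The motif alternatives were not run without sequence. Unknown depth limits any statement on genes without a peak.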

Other observations

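The small complexes in this paragraph were picked after their values had been seen, and their counts are descriptions. The chaperonin CCT, a ring of 8 related subunits, held a summit in the first 200 bp of 7 of its 8 genes (87.5%, against 6.25% of all protein-coding genes). Besides CCT5, CCT2 and CCT3 these were CCT4 (fold 2.17, offset 72 bp), CCT8 (1.95, 100 bp), CCT6 (1.54, 114 bp) and CCT7 (1.49, 96 bp), all between 54 and 114 bp inside the gene. The remaining subunit gene, TCP1, held none. Prefoldin, which hands actin and tubulin to the chaperonin, had only GIM3 (2.05, 71 bp) of 6 genes. The Arp2/3 complex had 3 of 7, namely ARC19, ARC18 (2.12, 56 bp) and ARC15 (1.59, 44 bp). The CCR4-NOT complex had CDC39 and CCR4 (1.72, 9 bp) of 9, with offsets of 3 and 9 bp. Translocases of the mitochondrial outer membrane had 5 of 12, which were TOM70, TOM6, MIM2 (1.77, 41 bp), MIM1 (1.61, 111 bp) and SAM35 (1.45, 92 bp). Of the 14 TAF genes 6 were members, and of the 8 LSM genes 3.

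In 5 paralogous gene pairs both copies held a summit in the first 200 bp, at depths that differed by 1 to 39 bp. The offsets were 168 and 173 bp in RPS26A and RPS26B, 196 and 197 bp in RPP2A and RPP2B, and 66 and 84 bp in the histone genes HTB1 and HTB2. They were 137 and 123 bp in the fluoride exporter genes FEX1 and FEX2, and 133 and 94 bp in RPS25A and RPS25B. Pairs as alike as RPS26A and RPS26B or FEX1 and FEX2 can share reads, and how the authors treated reads that map to several places is not given in the sources used here. These values are therefore uncertain for the single copies.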
